A study of Mus musculus with 23 samples.

Results

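The methionine cycle and transsulfuration enzymes were measured by 19 probes for 10 genes, Mat1a, Mat2a, Mat2b, Ahcy, Ahcyl1, Cbs, Cth, Bhmt, Pemt, and Gnmt, out of 39429 probes on the array. Every non-control probe that carried one of these gene names was taken. Of the 10 genes, 4 had 1 probe, 3 had 2 probes, and 3 had 3 probes. The brains came from adult C57BL/6J males of 19 weeks, grown from embryos that were fertilized in vitro and transferred into ICR recipient mothers, with 4 mice per group and 1 Cy3 array per mouse. Recipients ate their diet from the month before transfer until delivery. The control diet (CD) held 20% casein, 0.3% L-cystine, and 0.02% folic acid by weight. The protein-restricted diet (PR) held 5% casein, 0.077% L-cystine, and 0.02% folic acid. The folic acid-supplemented diet (FA) was the PR diet with 0.1% folic acid. Choline bitartrate was 0.25% in all 3 diets, and all progeny ate the CD after weaning. The methods state that foster mothers ate only the CD, whereas the scheme of the study gives them CD, PR, or FA. The enzymes were therefore measured in adults that had met the diets only through the mother that carried them or, if the scheme is right, also through the foster mother. The p-values set a difference between groups against the spread between brains within the groups. Which mice shared a mother is not given in the sources used here, so variation between litters could not be separated. Embryos came from parents on a standard diet in every group.

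The methionine cycle turns methionine into S-adenosylmethionine, the methyl donor for DNA, proteins, lipids, and small molecules. Each transfer leaves S-adenosylhomocysteine, which inhibits methyltransferases and is split into adenosine and homocysteine. Homocysteine is either methylated back to methionine, with a methyl group from folate or betaine, or passed through cystathionine to cysteine by transsulfuration. Methionine and cysteine come from dietary protein, and folate carries the methyl groups, so these enzymes lie where the diets differ.

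Probe sequences are shown because several of these genes had probes at different places on the transcript that did not move together. Positions along a transcript count from the first base of the accession that the files list, and genome positions are mm9. Each probe is listed with an mRNA, and the match was not checked by alignment here. For the Bhmt probe A_55_P2103963 the listed place covers only 5 bases of the genome, so its position is uncertain. Where the coding part begins and ends was not annotated here. A 3′ probe is shown by 30 of its 60 bases, and capitals, used for Pemt alone, mark the 23 bases that its probes share.
Mat2a upstream, A_55_P2095047, transcript base 709, chr6:72385926-72385985, minus strand: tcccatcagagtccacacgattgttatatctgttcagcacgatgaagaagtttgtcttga
Mat2a downstream, A_51_P500344, transcript base 2681, chr6:72382856-72382915, minus strand, last 30 bases: ttcaggatctattttttggaggtttattac
Ahcy upstream, A_55_P2031100, transcript base 184, chr2:154894644-154894703, minus strand: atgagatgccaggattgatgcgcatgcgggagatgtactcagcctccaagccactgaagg
Ahcy middle, A_52_P176160, transcript base 442, chr2:154891321-154891380, minus strand: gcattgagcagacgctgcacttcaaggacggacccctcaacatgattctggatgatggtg
Ahcy downstream, A_55_P2000938, transcript base 2411, chr2:154885047-154885106, minus strand, last 30 bases: aaaacaagccccgtgcacaggatggctaaa
Ahcyl1 upstream, A_51_P296328, transcript base 1824, chr3:107468005-107468466, minus strand, last 30 bases: cagatactaatggacatagtacagtgacca
Ahcyl1 downstream, A_51_P206251, transcript base 3246, chr3:107466583-107466642, minus strand, last 30 bases: tgtttacttctctctttccactgatcagag
Cth upstream, A_55_P1959923, transcript base 1134, chr3:157560183-157560242, minus strand: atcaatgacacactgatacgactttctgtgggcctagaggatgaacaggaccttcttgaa
Cth downstream, A_51_P431737, transcript base 1286, chr3:157557667-157557726, minus strand, last 30 bases: tacggcgcatacgcagaactgcactgaata
Pemt, A_55_P1967295, transcript base 733, chr11:59784160-59784219, minus strand, last 30 bases: tatgctgTGTGACTGCTGAGACCCCCATCC
Pemt, A_55_P1970860, transcript base 770, chr11:59784123-59784182, minus strand, first 30 bases: TGTGACTGCTGAGACCCCCATCCccaccat
The upstream Ahcyl1 probe spans 462 bases of the genome and thus crosses a splice junction. The Pemt probes at bases 733 and 770 are not independent, because they read overlapping bases. No other probe of the array shared a run of 20 bases with any of the 19 probes. The upstream and middle Ahcy probes also list a predicted transcript, so signal from a near copy of Ahcy at these probes remains uncertain. The downstream Ahcy probe is listed on another transcript record, so base 2411 and bases 184 and 442 are not on a shared scale.

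Some properties of the arrays bear on every result. All arrays of a diet lay on 1 slide and were scanned together, so slide and diet cannot be told apart. Between 27068 and 28458 spots of a CD array were well above background, against 31266 to 33478 in PR and 30408 to 31672 in FA. The median unnormalized signal of negative control spots was also lower in CD. It was 52.3 to 58.9 in CD, 66.1 to 75.2 in PR, and 62.4 to 71.3 in FA. The part of this difference in the results, also at dim probes, was not tested. No spot was saturated. Pituitary markers were lower outside the CD group: Gh, growth hormone, was at 7.73 to 8.37 log2 in CD, 2.24 to 3.10 in PR, and 2.26 to 6.16 in FA, and 2 of the 5 pituitary genes, Gh and Prl, were lower in each comparison with CD. Over the whole pituitary list the mean log2 value was 7.49 to 7.78 in CD, 4.93 to 5.43 in PR, and 3.97 to 6.90 in FA. Of the 6 oligodendrocyte markers, 2 were higher in both diet groups, and the list mean was 13.78 to 13.87 in CD, 13.92 to 13.99 in PR, and 13.87 to 14.08 in FA. The part of these shifts in the results was not tested. Fewer cells of a type and less RNA per cell cannot be told apart in whole brain. Markers of neurons, astrocytes, oligodendrocytes, and choroid plexus were well above background on all 12 arrays for all genes found, and of the 8 hepatocyte genes 2, Tat and Cyp2e1, were so on all 12 and Alb and Apoa1 on none. Hpx, a heme carrier of plasma, was above background on 11 arrays and was higher in both diet groups, at 5.55 to 5.89 in CD, 6.17 to 6.45 in PR, and 6.24 to 6.46 in FA (adjusted p = 0.002216 and 0.0006871). The mean of the hepatocyte list was 4.42 to 4.77 in CD, 4.50 to 4.59 in PR, and 4.54 to 5.09 in FA, and its part in the results was not tested.

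Relative to the CD group, the upstream probes of Mat2a, Ahcy, and Cth and both probes of Ahcyl1 were higher in both low-protein groups. The Pemt probe at base 733 and the downstream Ahcy probe were lower in PR, and the downstream Mat2a probe, the brighter of its pair, did not pass the test in either group. Values are log2 of the deposited normalized intensity, a difference of 1 is a doubling, and a probe was called at a limma adjusted p under 0.05 over all 39429 probes. In PR versus CD, 9 of the 19 probes were called, 6 higher and 3 lower, which is 47.4% against a background of 30% of all probes (16.6% lower and 13.4% higher). In FA versus CD, 8 were called, all higher, which is 42.1% against a background of 34.4% (18% lower and 16.4% higher). The share of called probes was thus not far from the background in either comparison. Higher calls were 31.6% of the 19 in PR and 42.1% in FA, beside 13.4% and 16.4% of all probes. For the 0 lower calls in FA versus CD, limma gave 3 lower probes at an unadjusted p under 0.05 and the Tukey test that the methods of the study name gave 0. None of the 19 reached the limits of the study, at least 2-fold and an adjusted p under 0.0001, which 0.0862% of all probes passed in PR versus CD and 0.195% in FA versus CD. The median difference of the 19 probes was 0.11 in PR versus CD and 0.13 in FA versus CD, beside -0.02 and -0.01 over all probes. At an unadjusted p under 0.05 there were 10 of the 19 in PR and 12 in FA, beside 41.1% and 44.4% of all probes. On all 12 arrays, 17 of the 19 were well above background. Among these 17, 7 were called in PR versus CD, 5 higher and 2 lower, beside 30.8% of the 23753 probes of that kind (14.3% lower and 16.5% higher), and 7 in FA versus CD, all higher, beside 37% (17.1% lower and 19.9% higher). Across both comparisons 6 probes of 5 genes were higher in each, but the comparisons share the same 4 CD arrays. These include the Mat1a probe, which was not well above background on any array. The share of all probes that were higher in both is not given here.

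**Figure D1:**
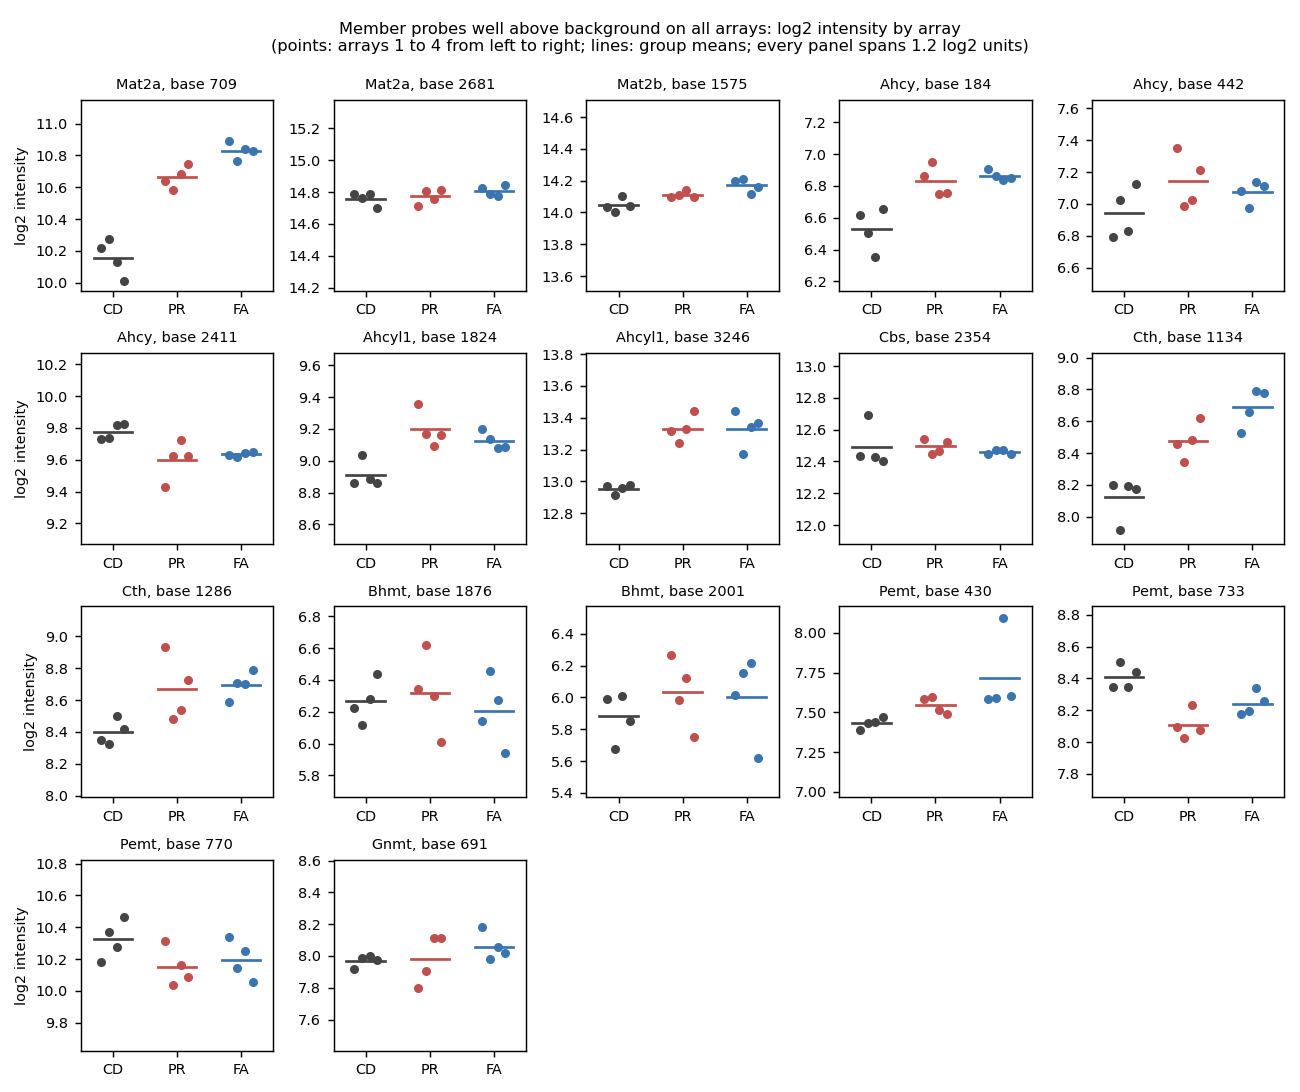
Log2 intensity of the 17 bright member probes, 1 panel per probe, named by gene and by the transcript base where the probe starts. Points are arrays 1 to 4 of each diet group from left to right and lines are group means. The panel of Mat2a at base 709 shows 3 separate groups, from 10.01 to 10.28 in CD to 10.76 to 10.89 in FA, whereas the panel of Mat2a at base 2681 shows groups that overlap.

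Synthesis of S-adenosylmethionine outside the liver rests on Mat2a, the catalytic subunit of methionine adenosyltransferase. At the upstream probe, Mat2a read 10.22, 10.28, 10.13, and 10.01 in the CD brains, 10.64, 10.58, 10.68, and 10.75 in the PR brains, and 10.89, 10.76, 10.84, and 10.83 in the FA brains. The 3 groups did not overlap, with every FA value above every PR value and every PR value above every CD value. The PR group was higher than the CD group by 0.50 ± 0.06 (SE, limma adjusted p = 0.0002625) and the FA group by 0.67 ± 0.06 (adjusted p = 7.359e-05), which are 1.42-fold and 1.59-fold. The difference of 0.17 between FA and PR did not pass the test (adjusted p = 0.2601, unadjusted 0.02247). At the downstream probe the same gene read 14.79, 14.76, 14.79, and 14.70 in CD, 14.71, 14.81, 14.76, and 14.82 in PR, and 14.83, 14.79, 14.77, and 14.84 in FA. These groups overlapped throughout. The differences from CD were 0.02 in PR, with a 95% confidence interval from -0.07 to 0.10, and 0.05 in FA, with an interval from -0.04 to 0.14, so a rise as large as that of the upstream probe lies outside both intervals. With the arrays scaled to their 75th percentile, the downstream probe turned to -0.13 in PR (adjusted p = 0.023) and -0.08 in FA (adjusted p = 0.134), while the upstream probe stayed at 0.51 and 0.67.

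Mat2b, the regulatory subunit that binds the Mat2a protein, differed little. Its values were 14.03, 14.00, 14.10, and 14.04 in CD, 14.09, 14.11, 14.14, and 14.10 in PR, and 14.20, 14.21, 14.11, and 14.16 in FA. All FA values lay above all CD values, and PR values overlapped those of CD. FA was higher than CD by 0.13 ± 0.04 (adjusted p = 0.0243), and PR by 0.07 ± 0.04 (adjusted p = 0.2). The FA call was lost under the 75th percentile scaling (0.02, adjusted p = 0.683) and without any one of CD array 1, CD array 2, FA array 1, or FA array 2. The fit of 2 groups and the fit with a replicate block also lost it. Mat1a, the form of the enzyme typical of liver, was not well above background on any of the 12 arrays, so the calls at its probe, with group means of 2.51 in CD, 3.13 in PR, and 3.37 in FA, have no fold.

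Hydrolysis of S-adenosylhomocysteine is the work of Ahcy, and its 3 probes did not move together. The upstream Ahcy probe read 6.62, 6.50, 6.35, and 6.65 in CD, 6.87, 6.95, 6.75, and 6.76 in PR, and 6.91, 6.86, 6.84, and 6.85 in FA. Every PR and FA brain was above every CD brain, and PR and FA overlapped. The rise was 0.30 ± 0.07 in PR (adjusted p = 0.009782) and 0.33 ± 0.07 in FA (adjusted p = 0.004621). With normexp background correction, another way to subtract background, it was 0.14 and 0.15 and passed the test in both. The middle Ahcy probe ranged from 6.79 to 7.13 in CD, from 6.99 to 7.35 in PR, and from 6.97 to 7.14 in FA. Its groups overlapped and its differences of 0.20 and 0.13 did not pass the test (adjusted p = 0.1441 and 0.3203). The downstream Ahcy probe, the brightest of the 3, read 9.73, 9.74, 9.82, and 9.82 in CD, 9.43, 9.63, 9.72, and 9.62 in PR, and 9.63, 9.62, 9.64, and 9.65 in FA. Here every PR and FA brain was below every CD brain. It fell by 0.18 ± 0.06 in PR (adjusted p = 0.04464) and was 0.14 ± 0.06 below CD in FA (difference -0.14, adjusted p = 0.08497). The PR call of this downstream probe was close to the threshold and was lost without any one of the 12 arrays other than PR array 3. It was also lost with normexp, in the fit of 2 groups, and with the Tukey test of the methods.

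Ahcyl1, also called IRBIT, resembles Ahcy in sequence but is known as a binding partner of inositol trisphosphate receptors. Its downstream probe read 12.97, 12.91, 12.96, and 12.98 in CD, 13.31, 13.24, 13.33, and 13.44 in PR, and 13.44, 13.17, 13.34, and 13.37 in FA. Its upstream probe read 8.86, 9.03, 8.89, and 8.86 in CD, 9.36, 9.17, 9.10, and 9.17 in PR, and 9.20, 9.14, 9.08, and 9.08 in FA. At both probes all PR and FA values exceeded all CD values, and PR and FA overlapped. The downstream probe rose by 0.38 ± 0.06 in PR (adjusted p = 0.001385) and by 0.38 ± 0.06 in FA (adjusted p = 0.001145). The upstream probe rose by 0.29 ± 0.06 in PR (adjusted p = 0.007442) and by 0.22 ± 0.06 in FA (adjusted p = 0.02503). Ahcyl1 was thus the gene of the set for which both probes passed the test in both comparisons. The FA call of the upstream probe was lost without any one of CD arrays 1, 3, or 4 or FA arrays 1 or 2. The Tukey test of the methods also lost it.

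Transsulfuration begins with Cbs, which joins homocysteine to serine, and ends with Cth, which splits the product to release cysteine. Cbs read 12.43, 12.70, 12.43, and 12.40 in CD, 12.54, 12.45, 12.47, and 12.52 in PR, and 12.45, 12.47, 12.47, and 12.45 in FA. CD array 2 stood above all other arrays. The Cbs difference was 0.01 in PR (95% confidence interval from -0.13 to 0.14) and -0.03 in FA (interval from -0.17 to 0.11), and neither passed the test (adjusted p = 0.9536 and 0.7633). Without CD array 2, the differences were 0.07 in PR (adjusted p = 0.184) and 0.04 in FA (adjusted p = 0.455).

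Cth was higher in the low-protein groups. The upstream Cth probe read 8.20, 7.92, 8.20, and 8.17 in CD, 8.46, 8.34, 8.48, and 8.62 in PR, and 8.53, 8.66, 8.79, and 8.78 in FA. No PR or FA value reached down to the CD values, and FA overlapped PR. It rose by 0.35 ± 0.09 in PR (adjusted p = 0.01165) and by 0.57 ± 0.09 in FA (adjusted p = 0.0007541), or 1.28-fold and 1.48-fold. Without CD array 2, the lowest of its group, the rises were 0.29 (adjusted p = 0.0263) and 0.50 (adjusted p = 0.00167). The downstream Cth probe read 8.35, 8.33, 8.50, and 8.42 in CD, 8.93, 8.48, 8.54, and 8.73 in PR, and 8.59, 8.71, 8.70, and 8.79 in FA. It was separate from CD in FA, whereas in PR array 2 fell within the CD range. Its FA rise of 0.30 ± 0.09 passed the test (adjusted p = 0.03154), and its PR difference of 0.27 ± 0.09 did not (adjusted p = 0.05021). The FA call was lost without any one of CD arrays 1, 2, or 4 or FA arrays 2, 3, or 4 and with normexp (0.19), and the PR difference passed without PR array 2 or PR array 3.

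Methyl consumers and the betaine route were mixed. Pemt, which methylates phosphatidylethanolamine to phosphatidylcholine, read 8.35, 8.50, 8.34, and 8.44 in CD, 8.09, 8.02, 8.23, and 8.08 in PR, and 8.18, 8.19, 8.34, and 8.26 in FA at base 733. All PR and FA values lay below all CD values. It fell by 0.30 ± 0.06 in PR (adjusted p = 0.004118), and in FA the difference of -0.17 ± 0.06 did not pass the test (adjusted p = 0.05487). The overlapping Pemt probe at base 770 gave differences of -0.17 and -0.13 with overlapping groups (adjusted p = 0.1562 and 0.2858). The Pemt probe at base 430 was above CD on every PR and FA array, by 0.11 and 0.28, and did not pass either (adjusted p = 0.4286 and 0.05392). On FA array 3 that probe stood at 8.09, against 7.58 to 7.61 on the other FA arrays. Without this array the FA difference was 0.16 and passed the test (adjusted p = 0.0208), as it also did without FA array 1 or FA array 2 and with dim probes removed. Gnmt, which methylates glycine and takes up excess S-adenosylmethionine in liver, had means of 7.97 in CD, 7.98 in PR, and 8.06 in FA and differences of 0.01 and 0.09 (adjusted p = 0.9155 and 0.4039). Bhmt, which remethylates homocysteine with betaine, had 2 probes above background on all arrays, with differences between -0.06 and 0.15, none of which passed the test (lowest adjusted p = 0.4734). The remaining Bhmt probe, A_55_P2103963, was above background on 1 PR array only and is given no fold, although its PR versus CD difference was called.

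**Figure D2:**
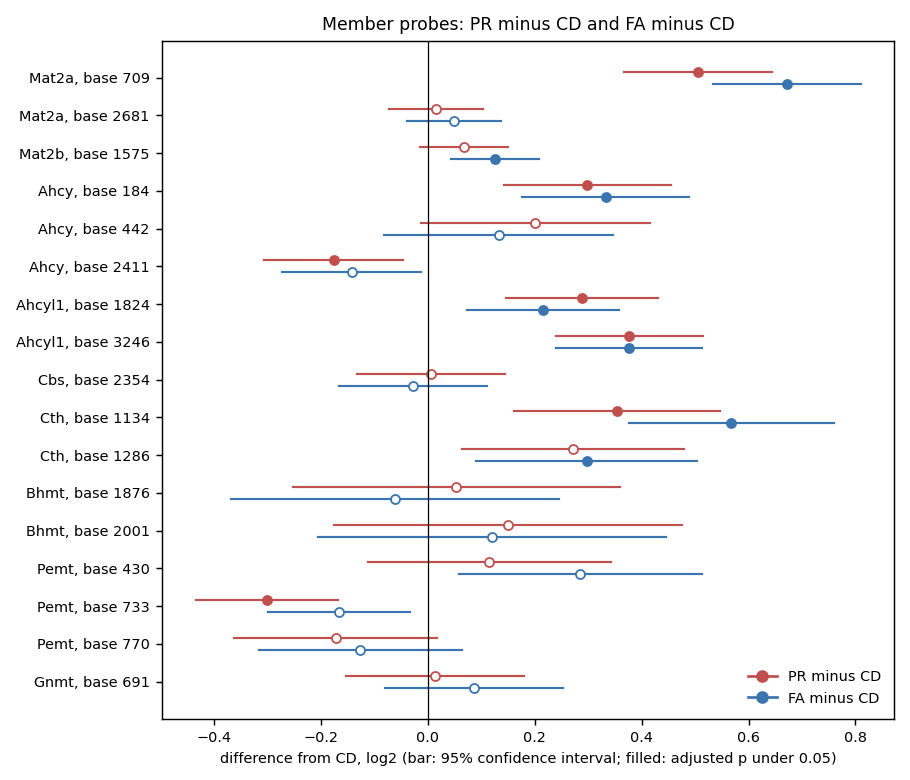
Difference from CD on the log2 scale for the same 17 probes, PR minus CD in red and FA minus CD in blue, with 95% confidence intervals from limma. Filled points have an adjusted p under 0.05. Mat2a at base 709 lies at 0.50 and 0.67, both Ahcyl1 probes lie to the right of 0 in both comparisons, and the Pemt probe at base 733 lies at -0.30 and -0.17.

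Few probes of the whole array were called between FA and PR, and these genes did not stand out from that background. In FA versus PR, limma called 0 of the 19 probes, with 3 at an unadjusted p under 0.05, and the Tukey test of the methods also called 0. The background for this comparison was 0.614% of all probes (0.386% lower and 0.228% higher), 0.775% of those above background on all arrays, 0% at the limits of the study, and 14.1% at an unadjusted p under 0.05. The 3 probes were the upstream probes of Mat2a and Cth and the Pemt probe at base 733, each higher in FA by 0.17, 0.21, and 0.14 (unadjusted p = 0.02247, 0.03263, and 0.04713). Only the upstream Mat2a probe had FA and PR values that did not overlap, with FA higher, a pattern that 6.15% of all probes showed, of 11.1% in either direction. In PR versus CD, 10 of the 19 probes had groups that did not overlap, 7 higher and 3 lower, beside 33.2% of all probes (14.2% higher and 19% lower). In FA versus CD 11 did, 9 higher and 2 lower, beside 36.9% (17.1% higher and 19.7% lower).

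For Mat2a, Ahcy, Ahcyl1, and Cth, the gap between an upstream and a downstream probe was followed from array to array, a comparison chosen after the values were seen. Pemt and Bhmt also had several probes and were left out. The Pemt probes at bases 430 and 733 differed from CD in opposite directions, and their gap was not tested. For Mat2a the gap was 0.49 higher in PR than in CD and 0.62 higher in FA than in CD, and the 3 groups did not overlap (two-sided exact permutation test of 4 against 4 arrays, p = 0.0286 each, the smallest this design allows, and 0.0536 after Benjamini-Hochberg adjustment over the 15 gap comparisons made). The Mat2a gap also differed between FA and PR by 0.13 (exact p = 0.0286, adjusted 0.0536). For Ahcy the gap between the upstream and the downstream probe was higher than in CD by 0.47 in PR and by 0.48 in FA (exact p = 0.0286 each, adjusted 0.0536), with 0.00 between FA and PR. With the middle Ahcy probe in place of the upstream probe the gap was higher by 0.38 in PR (exact p = 0.0571, adjusted 0.0952) and 0.27 in FA (exact p = 0.0286, adjusted 0.0536). For Cth the gap was 0.08 higher in PR (exact p = 0.457, adjusted 0.561) and 0.27 higher in FA (exact p = 0.0286, adjusted 0.0536), and FA was above PR by 0.19 (exact p = 0.0286, adjusted 0.0536). For Ahcyl1 the gap changed by -0.09 in PR and -0.16 in FA, neither beyond the spread (exact p = 0.371 and 0.114, adjusted 0.506 and 0.171). None of these adjusted values was under 0.05. With a smallest exact p of 0.0286 over 15 comparisons, no gap could pass on its own, so the adjusted values do not decide the question. A gap shows unequal change of the probes, not which of them tracked the gene. Across 2657 transcripts with probes at least 300 bases apart and above background on all arrays, the median change of the gap was 0.05 in PR and 0.03 in FA, and 56.8% and 53% of transcripts were above 0. The Mat2a change was equalled or passed by 7.38% of those transcripts in PR and 3.31% in FA, and that of Ahcy by 7.94% and 8.39%. These shares count increases only, and the 5th percentile of the change was -0.62 in PR and -0.70 in FA. Both probes of each background pair are listed on the same transcript record, whereas the paired Ahcy probes are not. The shares for Ahcy thus set it beside pairs of another kind.

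**Figure D3:**
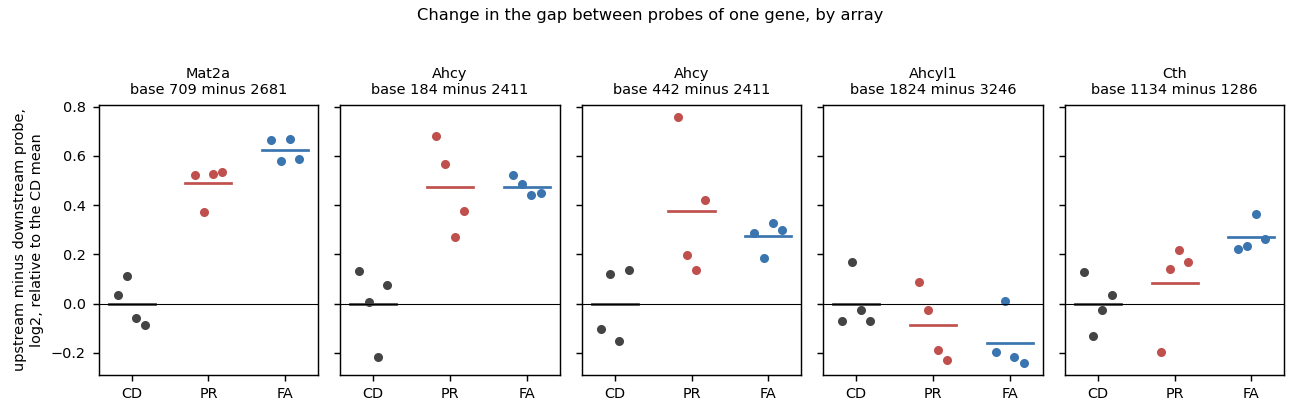
Upstream minus downstream probe of the same gene on the log2 scale, relative to the mean of the CD arrays, for each array (points) and group (lines). All PR and FA arrays lie above all CD arrays for Mat2a and for the upstream Ahcy probe, by 0.49 and 0.62 and by 0.47 and 0.48 on average, and the Ahcyl1 groups overlap.

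Genes next to these enzymes in the pathway were taken as 4 lists with 55 probes, of which 49 were above background on all arrays. In PR versus CD, 16 of the 55 were called, 10 higher and 6 lower, which is 29.1% against the background of 30%. In FA versus CD, 17 were called, 12 higher and 5 lower, which is 30.9% against 34.4%. In FA versus PR limma called 0 of 55, with 8 at an unadjusted p under 0.05, and the Tukey test 0. The lists were thus called no more often than probes in general. Amd1 had no probe under this name.

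Among the genes of remethylation, betaine, and adenosine, 5 of 17 probes were called in PR, all higher, and 6 in FA, 5 higher and 1 lower. Of the 11 above background on all arrays, 3 were called in PR, all higher, and 5 in FA, 4 higher and 1 lower, and the other calls were at dim probes of Aldh7a1 and Bhmt2. Adk, the kinase that removes the adenosine released with homocysteine, had the largest rise of these 11 at probe A_55_P2089820, from 9.92 ± 0.06 in CD to 10.41 ± 0.08 in PR and 10.44 ± 0.12 in FA (SD, n = 4). Its differences were 0.49 ± 0.07 (SE, adjusted p = 0.0004394) and 0.52 ± 0.07 (adjusted p = 0.000264), and no PR or FA brain overlapped a CD brain. The other Adk probe, A_51_P130666, was brighter and gave -0.02 in PR and -0.10 in FA, neither past the test (adjusted p = 0.7851 and 0.2258). Ahcyl2, the relative of Ahcyl1, rose by 0.26 in PR and 0.21 in FA at probe A_55_P2266977 (adjusted p = 0.005002 and 0.01313), whereas its probe A_52_P162509 gave -0.11 in each and did not pass (adjusted p = 0.5918 and 0.5734). Chdh, which makes betaine aldehyde from choline, fell by 0.25 in FA (adjusted p = 0.02847).

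In the list of small-molecule methyltransferases, 4 of 11 probes were called in each comparison, 3 higher and 1 lower. The list also held Icmt and Pcmt1, which methylate proteins, so its name does not cover them. The higher calls were at both Hnmt probes and at Pcmt1, and the lower call was at Icmt. Pcmt1 was higher by 0.17 in PR and 0.30 in FA (adjusted p = 0.03034 and 0.001705). Hnmt, which methylates histamine, rose at probe A_55_P2043509 from 9.46 ± 0.22 to 9.85 ± 0.01 in PR and 9.85 ± 0.10 in FA (SD, n = 4), by 0.38 and 0.39 (adjusted p = 0.01439 and 0.01147). Icmt, which methylates the end of prenylated proteins, fell at probe A_55_P2114492 by 0.39 in PR (adjusted p = 0.04542) and by 0.57 in FA (adjusted p = 0.006762). Its other 2 probes did not pass the test, with 0.02 in PR and -0.04 in FA at A_55_P2096530 and -0.17 and -0.26 at A_55_P2096535 (adjusted p = 0.2861 and 0.09703).

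Polyamine synthesis and methionine salvage held 16 probes, with 1 called higher and 3 lower in PR and 4 higher and 1 lower in FA. Odc1, the first enzyme of polyamine synthesis, rose at probe A_52_P436238 by 0.43 in PR (adjusted p = 0.0008078) and by 0.36 in FA (adjusted p = 0.001889), yet fell by 0.25 in PR at probe A_55_P2035102 (adjusted p = 0.01116). Its brightest probe, A_55_P1995173, gave -0.045 in PR and 0.05 in FA, neither past the test (adjusted p = 0.416 and 0.357). Probe A_55_P1982818 passed in FA alone, at 0.24 (adjusted p = 0.02774), with 0.04 in PR (adjusted p = 0.7267). The largest falls were 0.28 for Mri1 in PR (difference -0.28, adjusted p = 0.01184) and 0.22 for Apip in FA (difference -0.22, adjusted p = 0.01065), both of the salvage route.

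Cysteine, sulfide, taurine, and glutathione genes had 11 probes, with 1 called higher and 2 lower in PR and 2 lower in FA. Mpst, which passes sulfur from mercaptopyruvate, read 12.67, 12.55, 12.51, and 12.57 in CD, 12.21, 12.35, 12.40, and 12.21 in PR, and 12.10, 12.27, 11.92, and 12.01 in FA. It fell by 0.28 ± 0.08 in PR (adjusted p = 0.02071) and by 0.50 ± 0.08 in FA (adjusted p = 0.0008361), with no overlap with CD. Sqrdl, a mitochondrial enzyme that oxidizes sulfide, fell by 0.20 in PR (adjusted p = 0.00611) and by 0.23 in FA (adjusted p = 0.002014). Gclm, the modifier subunit of the first enzyme of glutathione synthesis, was higher by 0.37 in PR (adjusted p = 0.04462), although the CD arrays ranged from 8.66 to 9.33 and overlapped PR.

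**Figure D4:**
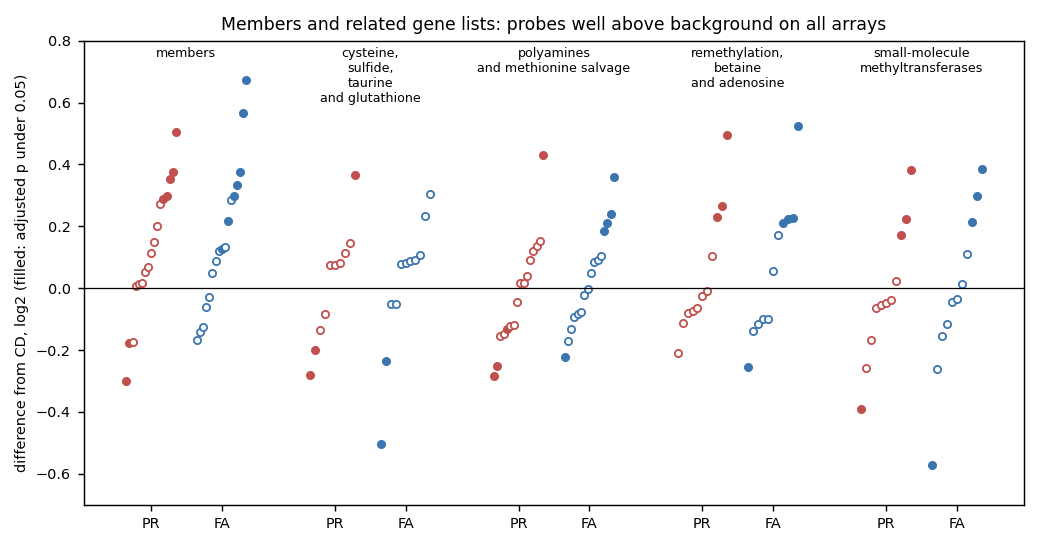
Difference from CD on the log2 scale for probes above background on all arrays, for the members and for 4 related gene lists. PR is in red and FA in blue, sorted within each column. The open point of Gss in PR, at 1.51 (SE 0.9959, limma adjusted p = 0.2802), lies beyond the axis and is not visible. Filled points have an adjusted p under 0.05. The highest filled points are Mat2a at 0.67 among the members and Adk at 0.52 among the remethylation genes, and the lowest are Icmt at -0.57 and Mpst at -0.50 in FA.

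The promoters of these genes varied widely in their content of CG pairs, the site of DNA methylation. Of the 10 genes, 8 were in the RefSeq promoter table (GRCm38, 250 bases before to 50 after the start), with 11 starts, and Cth and Mat1a were the others. The number of CG pairs ran from 2 and 3 at the Pemt starts to 34 at Mat2a and 46 at an Ahcyl1 start, with a median of 7 over all 32851 promoters. The letters TGATGNAA, searched on both strands, were in 0 of the 11 and in 3.97% of all promoters. The probes themselves had between 35% and 55% G and C.

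Likeness across the 12 arrays was measured for the brightest probes of Mat2a, Ahcy, and Cbs against about 23750 probes of other genes, by Pearson's r and as a description only. The downstream Ahcy probe was most like probes of B830008H07Rik (r = 0.95), Csgalnact1 (r = 0.94), and Acox2 (r = 0.93). Cbs was most like Armcx6 (r = 0.93), G2e3 (r = 0.92), and Rbm14 (r = 0.92). The downstream Mat2a probe was most like ENSMUST00000111952, Rimbp3, and 0610009E02Rik, each at r = 0.86. The points share 3 slides and diets.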

How the data were processed

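The authors labeled RNA of 12 whole brains with Cy3, hybridized and scanned Agilent arrays, and quantified spots with Feature Extraction 11.0.1.1, per the labels. Spot intensity corrected for background within each array was deposited, with flags for spots well above background, and the authors deposited a table of linear intensity after qspline normalization, 1 value per probe. That function, rewritten in R and run on the mean spot intensity, gave values within 0.151 log2 of the deposited ones (median gap 0.000976). Each array had 43020 non-control spots for 39429 probes, and the number of arrays limits the precision. Promoter methylation samples of the same study, 11 in all, were not analysed here.

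The log2 of the deposited intensity was fitted over the 3 diet groups with limma 3.58.1 in R 4.3.3, with Benjamini-Hochberg adjustment over all probes. Each array counted a probe as bright where 50% or more of its spots had that flag. Gaps between probes were compared by exact permutation, chosen after the values were seen. The members and lists were chosen with earlier results of these data known. Every member probe was named, and in each list the largest called rise and fall among probes above background on all arrays, with the brightest probe for likeness. Ahcyl2, Pcmt1, Sqrdl, Gss, Aldh7a1, and Bhmt2 were named after their values were seen. So were the other probes of Odc1, Adk, Icmt, and Hnmt, and the pituitary and hepatocyte genes. Current gene symbols were not looked up. The fit was tested on simulated data. Alternatives were qspline without outlier spots (77 values missing), the 75th percentile, quantile normalization, normexp with an offset of 50, removal of dim probes, fits of 2 groups, trended robust variances, a replicate block, the Tukey test of the methods, and leaving out each array. Replicate numbers give the place of an array on its slide. Figures were drawn with matplotlib 3.10.9.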

Additional observations from a re-analysis of the deposited data

Results flagged for a closer look

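In 57 sets of 4 arrays, 1 for each of the 19 probes in each diet group, 5 had an array whose gap to its nearest neighbour took up an unusually large share of the range of the group. Chance flags about 1 in 20 groups, or 2.85 of 57. CD array 2 accounted for 3 of them. The upstream Ahcyl1 probe read 9.03 on CD array 2, against 8.86 to 8.89 on the other CD arrays. Cbs read 12.70 there, against 12.40 to 12.43. The upstream Cth probe read 7.92 there, against 8.17 to 8.20. Over the 23753 probes above background on all arrays, CD array 2 stood apart in this way for 1.98%, within the 0.728% to 2.46% of the other arrays. The Pemt probe at base 430 read 8.09 on FA array 3, against 7.58 to 7.61. Mat1a, below background throughout, read 2.56 on CD array 3, against 2.49 to 2.503.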

How the results depend on the processing

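Of the 9 member calls in PR versus CD, 6 kept their side of the threshold under every alternative run, and of the 8 in FA versus CD, 4 did: these were Mat2a (base 709), Ahcy (base 184), Ahcyl1 (base 3246), and Cth (base 1134) in both comparisons, and Ahcyl1 (base 1824) and Pemt (base 733) in PR. Leaving out 1 array gave 7 to 9 called member probes in PR, 6 to 9 in FA, and 0 in FA versus PR, and 10 to 16, 12 to 17, and 0 called list probes, with the lowest of 10 in PR reached without PR array 3. The Tukey test of the methods called 10 list probes in PR and 11 in FA. The replicate block could not be read as a pairing: same-numbered arrays correlated at -0.06 to 0.20, over 0.1 in 3 of 12 pairs, and 5 of 12 matched best with their own number. With the replicate block, 8, 7, and 0 member probes and 12, 15, and 0 list probes were called in PR, FA, and FA versus PR. Dim Mat1a lost its PR call in 10 of 20 alternatives and its FA call in 2.

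Direction turned for differences that had not passed the test, with 1 exception, the dim Bhmt probe A_55_P2103963, called at -0.47 in PR. Scaled to the 75th percentile, PR minus CD was -0.13 for Mat2a (base 2681), -0.0415 for Mat2b, -0.0429 for Cbs, and 0.0262 for Bhmt (A_55_P2103963). FA minus CD was -0.0805 for Mat2a (base 2681) and 0.0828 for that Bhmt probe, and FA minus PR was -0.0365 for Ahcy (base 184), 0.0071 for Ahcyl1 (base 3246), and -0.0005 for Cth (base 1286). With normexp, FA minus CD was 0.0191 for Cbs and 0.0117 for Bhmt (A_55_P2103963). FA minus PR for Ahcyl1 (base 3246) was 0.0034 with qspline without outlier spots and 0.0031 with quantile normalization. Leaving out 1 array turned others: PR ran from -0.0047 to 0.0354 for Mat2a (base 2681), -0.0232 to 0.0746 for Cbs, -0.0471 to 0.1547 for Bhmt (base 1876), and -0.031 to 0.0735 for Gnmt, and FA from -0.0569 to 0.0408 for Cbs and -0.1455 to 0.0251 for Bhmt (base 1876). FA minus PR ran from -0.1199 to 0.0005 for Ahcy (base 442), -0.0242 to 0.0745 for Ahcy (base 2411), -0.0372 to 0.0523 for Ahcyl1 (base 3246), -0.0377 to 0.1121 for Cth (base 1286), -0.1235 to 0.0972 for Bhmt (base 2001), and -0.0009 to 0.101 for Pemt (base 770). The cause was not tested. The 75th percentile scaling moved the split of all FA versus CD calls from 52.4% lower to 60.9%, and normexp to 43.3%.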
